A study of Mus musculus with 16 samples.

Results

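The genes described here are the 41 DNA replication and nucleotide supply genes of the mouse, which load and fire replication origins, copy both strands, make deoxynucleotides and guard or re-methylate the new DNA. Each gene was read through the probe sets that the array's annotation gives to it alone, and the probe set with the highest mean over the 16 arrays was used. Of the 41 genes, 40 had such a probe set (Gins2 had none), and 39 passed the filter on low values and were tested among 9252 genes. The gene left untested was Tyms, thymidylate synthase, whose used probe set gave signals of 0.8 to 10.1 on every array. Orc1 passed only through the tumours, since all 3 gland arrays lay at or below the filter value of 35.4.

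All samples came from mice on an FVB/N background and were hybridised to the Affymetrix Mouse Genome 430A 2.0 array, a short-oligonucleotide array that reports 1 signal per probe set. There were 3 arrays of normal mammary gland (labelled 1, 4 and 6), 7 of mammary tumours from mice carrying STAT5ca, a constitutively active STAT5, and 6 of mammary tumours from mice carrying STAT5Δ750, a STAT5 truncated at its C-terminus. STAT5 is the transcription factor that prolactin signalling activates in the mammary epithelium. The promoter that drives either transgene, the stage of the gland, the ages and the tumour histology are not given in the labels used here. The labels name no batch and do not say that the samples of a group came from separate animals, so the p-values measure the spread between these samples.

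A cell copies its genome once per division. In G1 the origin recognition complex, Cdc6 and Cdt1 load the ring-shaped Mcm2 to Mcm7 helicase onto origins, and in S phase Cdc45, the GINS complex and Mcm10 start it. Primase and polymerase alpha lay down primers, the Rfc clamp loader places the Pcna ring, and polymerases delta and epsilon extend the strands with nucleotides from ribonucleotide reductase and thymidine kinase. E2F transcription factors are known to activate many of these genes at the G1 to S transition, and resting adult tissue holds little of their mRNA.

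Relative to the gland, 24 of the 39 tested genes rose in the STAT5ca tumours and 26 rose in the STAT5Δ750 tumours, and none fell in either. Over all genes tested, 6.72% rose in the STAT5ca tumours and 7.61% rose in the STAT5Δ750 tumours (limma, adjusted p under 0.05 over 9252 genes), and 19.9% and 21.6% passed in either direction. At an unadjusted p under 0.05, 28 and 30 of the 39 genes differed, against 33.2% and 35.1% of all genes. The median log2 change of the 39 genes was 1.08 in the STAT5ca tumours and 1.21 in the STAT5Δ750 tumours, where the median of all genes was -0.02 and -0.04. The 2 comparisons share the 3 gland arrays, so their calls are not independent of each other. All 39 log2 changes were above 0 in the STAT5ca tumours, from 0.03 for Rpa1 to 2.30 for Tk1, and 38 were above 0 in the STAT5Δ750 tumours, from -0.20 for Rpa1 to 2.26 for Tk1. Changes here are differences of mean log2(signal + 8), with the standard error (SE) of the fitted model, and they understate the change of dim genes.

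**Figure D1:**
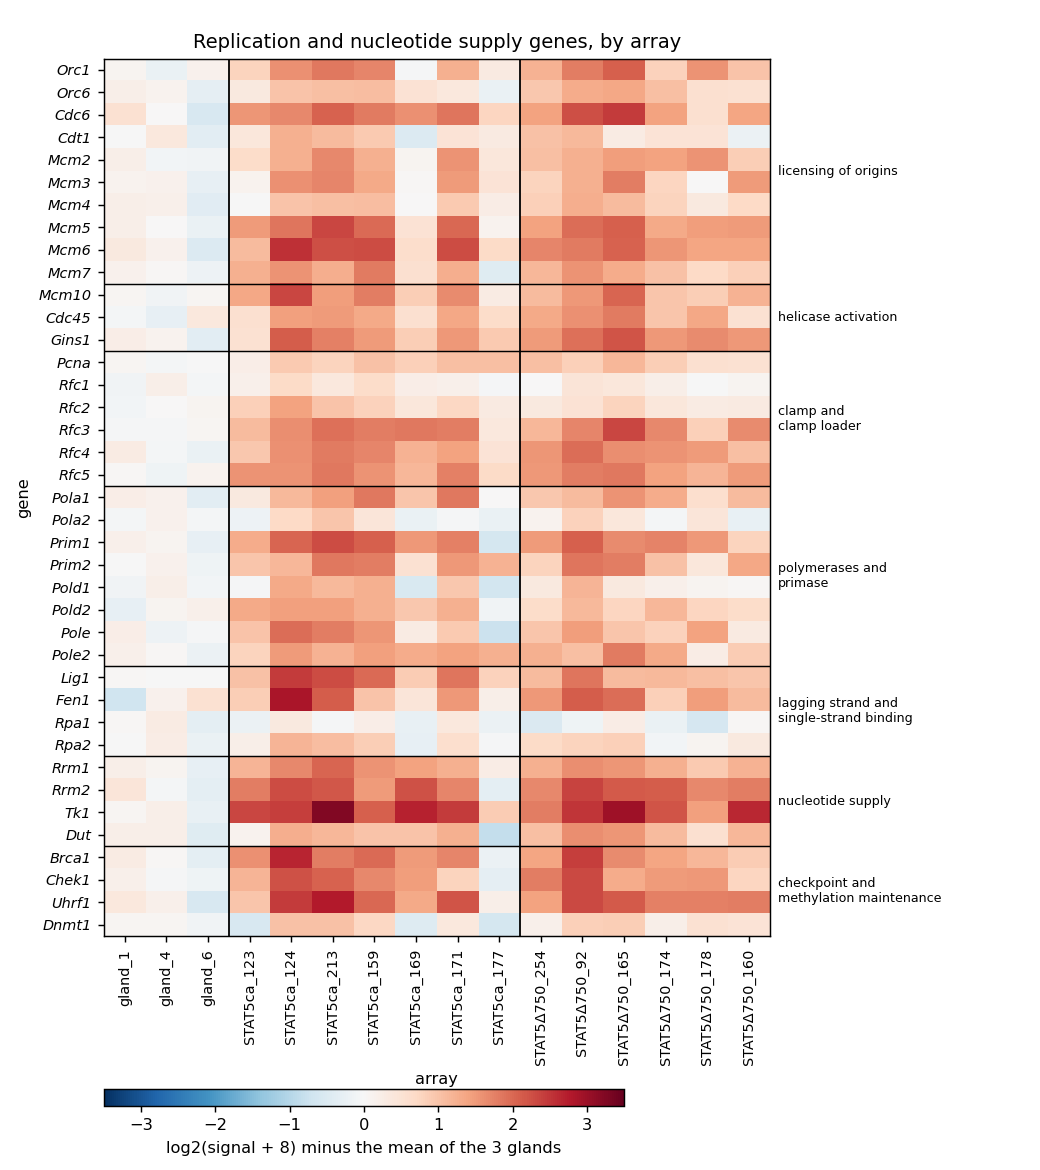
Each cell is log2(signal + 8) of 1 of the 39 genes (rows, grouped by role) on 1 of the 16 arrays (columns), minus the mean of the 3 glands, red for higher and blue for lower. The tumour columns are mostly red, the column of STAT5ca_177 is the palest among the tumours, and the rows of Rpa1, Rfc1 and Pola2 stay pale.

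Every one of the 7 STAT5ca tumours lay above every gland for 15 of the 39 genes, against 6.72% of all genes. In the 6 STAT5Δ750 tumours that held for 32 of the 39, against 14.4% of all genes. One STAT5ca array, STAT5ca_177, lay below all other STAT5ca arrays for 26 of the 39 genes, a count that was not made over all genes. Without STAT5ca_177, the tumours lay above every gland for 26 genes in the STAT5ca group (14.7% of all genes), and 30 of the 39 rose (13.4% of all genes). The 6 genes gained without that array were Orc1, Orc6, Mcm7, Pole, Fen1 and Dut, and none was lost.

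The array STAT5ca_177 stood apart beyond these genes, with a mean correlation of 0.67 with its group over all tested genes, against 0.81 to 0.86 for the other STAT5ca arrays. Its luminal keratin genes were low, with a Krt8 signal of 25.3 and a Krt18 signal of 50.2, where the glands gave 708 to 1880 for Krt8. The luminal markers Krt19 and Epcam also lay below every gland on that array. Cdh1 did not, at 563.4 within the gland range of 493.5 to 801.7. The mean log2 level of its skeletal muscle markers was 9.53, where the rest of its group had 3.72 to 7.83. The mean log2 level of its 4 macrophage markers was 11.55, where the rest of its group had 8.65 to 10.10, and that of its 9 mitosis markers was 7.22, where the rest had 8.58 to 9.59. The part of these levels in the replication genes of that array was not tested.

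Tissue make-up also moved with the comparison of tumours with gland. All 5 adipocyte markers, all 4 B cell markers and all 4 T cell markers fell in both tumour types, and skeletal muscle markers fell for 5 of 5 in the STAT5ca and 4 of 5 in the STAT5Δ750 tumours. The mean log2 level of the adipocyte markers was 9.6 to 9.78 in the glands, 4.39 to 7.10 in the STAT5ca and 5.12 to 6.62 in the STAT5Δ750 tumours. Over the muscle markers it was 12.55 to 12.77, 3.72 to 9.53 and 4.74 to 10.88, over the B cell markers 8.53 to 9.49, 3.92 to 7.69 and 3.88 to 7.72, and over the T cell markers 8.10 to 8.95, 3.65 to 6.32 and 4.09 to 6.96. Of the 4 endothelial markers, 3 fell in each tumour type, with mean levels of 8.11 to 8.56, 5.49 to 7.27 and 6.13 to 6.68. Of the 5 luminal epithelial markers 1 rose in each tumour type (Cdh1), with mean levels of 9.41 to 10.64 in the glands, 6.15 to 12.14 in the STAT5ca and 11.07 to 12.01 in the STAT5Δ750 tumours. The 9 mitosis markers all rose in both, with median log2 changes of 2.16 and 2.33. The part of tissue make-up in the results was not tested, and in bulk tissue fewer cells of a type and less RNA per cell cannot be told apart.

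Of the 2 control ratios of RNA quality on the array, that of beta-actin moved with the groups. The 3′ to 5′ signal ratio of beta-actin, which grows as RNA is degraded, was 1.07 to 1.25 on the gland arrays, 1.76 to 5.38 in the STAT5ca and 1.27 to 3.52 in the STAT5Δ750 tumours. Every tumour lay above every gland in this ratio, so RNA quality and the difference of tumour and gland cannot be told apart here. With the log2 of the ratio as a covariate, 4 of the 39 genes passed in the STAT5ca tumours (Pcna, Rfc5, Pole2 and Tk1) and 15 in the STAT5Δ750 tumours. Of all genes, 1.85% and 5.53% rose in that fit. The log2 changes were then above 0 for 35 and 37 of the 39 genes, with medians of 0.92 and 1.06. The same ratio of Gapdh overlapped between the groups, at 0.84 to 1.03 in the glands, 0.79 to 1.71 in the STAT5ca and 0.76 to 0.86 in the STAT5Δ750 tumours. With the log2 of the Gapdh ratio as the covariate, 23 and 29 of the 39 genes rose (6.76% and 7.24% of all genes). With each array scaled to a common median in place of the deposited scaling, 31 and 29 genes rose (13.9% and 9.29% of all genes), and the median change of all genes moved to 0.26 in the STAT5ca and 0.08 in the STAT5Δ750 tumours. Higher calls then made up 59.7% and 47.3% of all calls, against 33.7% and 35.2% with the deposited scaling. Quantile normalization gave 25 and 28 (9.4% and 9.66% of all genes).

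**Figure D2:**
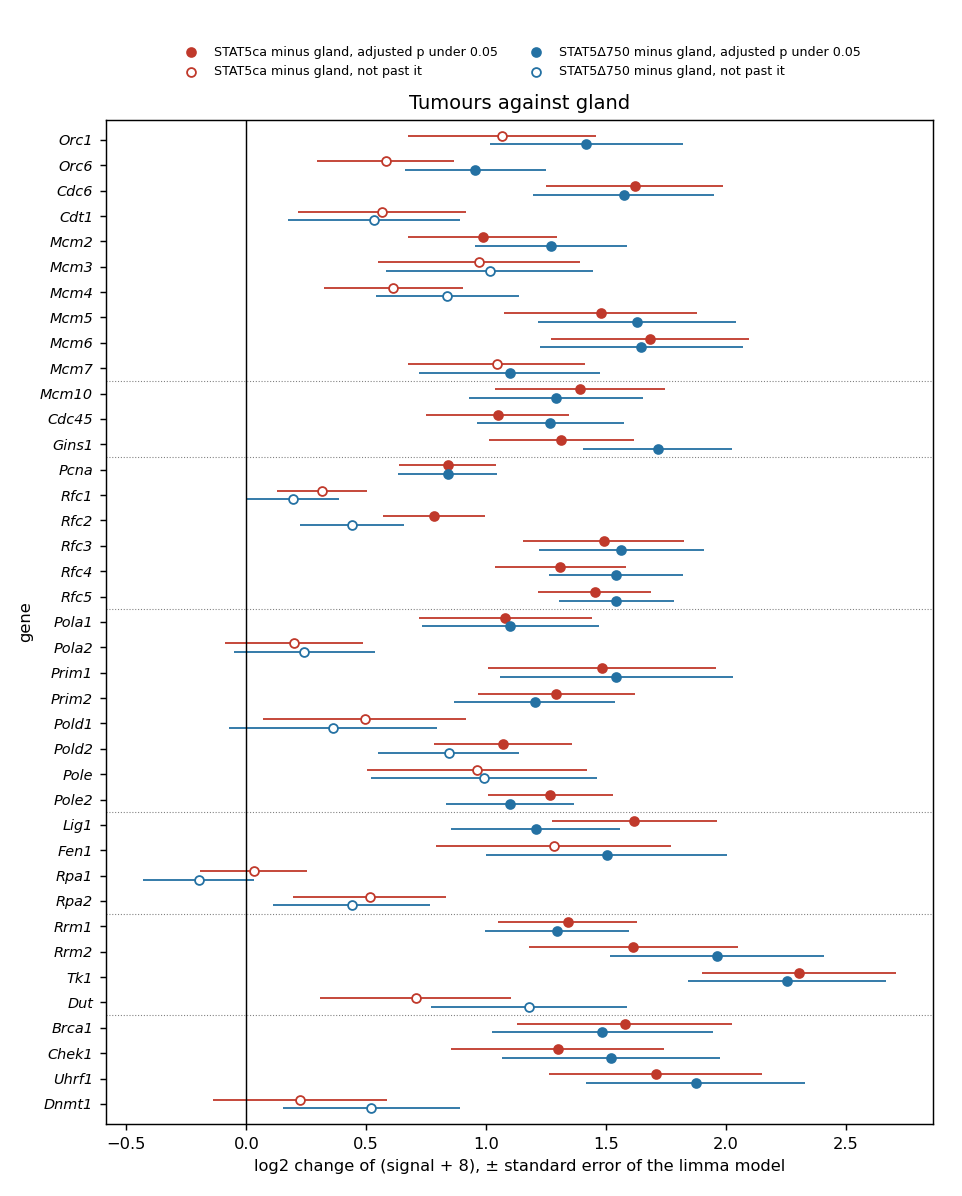
Points give the log2 change of each of the 39 genes from gland to STAT5ca tumours (red) and to STAT5Δ750 tumours (blue), with bars of ± 1 SE. Filled points passed an adjusted p of 0.05, which 24 red and 26 blue points did, and Tk1 lies farthest to the right in both colours.

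The promoters were searched for the DNA words that E2F proteins are known to bind. Promoter windows of 300 bases (250 before and 50 after the start of the gene) were available for 35 of the 41 genes from RefSeq (GRCm38.p6), with several windows for 6 of them. The words TTTCCCGC, TTTGGCGC, TTTCGCGC and TTTGCCGC were searched on both strands, and neighbouring matches may overlap. At least 1 word stood in a window of 14 of the 34 tested genes that have one (41.2%), against 361 of 7452 of all tested genes that have one (4.8%) and 2.3% of all 32851 windows. The CCAAT word stood in 22 of the 34 (64.7%), against 42.5% of all tested genes with a window. TTCNNNGAA, the word that STAT proteins bind, stood in 3 of the 34 (8.8%; Cdc45, Lig1 and Mcm5), against 8.2% of all tested genes with a window. Of the tested genes with a window that rose in both tumour types, 8 of 20 had an E2F word. Of those that passed in neither comparison, 4 of 9 had one. A match is a description of the sequence and not a measured binding site.

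The 250 bases before the start are printed for 4 genes that rose in both tumour types, 5′ to 3′ on the strand of the gene, with the E2F words in capitals. Mcm6 has 3 words, the first pair of which overlaps, Mcm5 has an overlapping pair and Cdc6 has 1, while Tk1, which rose the most, has none of these letters in its window. The regions are chr1:128359706-128359955 (minus strand), chr8:75109259-75109508 (plus strand), chr11:98907901-98908150 (plus strand) and chr11:117826015-117826264 (minus strand). Counted back from the start, the words begin at -110, -106 and -47 in Mcm6, at -153 and -149 in Mcm5 and at -138 in Cdc6.
Mcm6: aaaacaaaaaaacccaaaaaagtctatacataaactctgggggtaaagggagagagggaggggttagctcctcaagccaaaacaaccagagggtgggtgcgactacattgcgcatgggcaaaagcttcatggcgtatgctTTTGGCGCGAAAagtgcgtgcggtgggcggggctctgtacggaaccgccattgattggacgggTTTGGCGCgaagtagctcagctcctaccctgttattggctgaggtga
Mcm5: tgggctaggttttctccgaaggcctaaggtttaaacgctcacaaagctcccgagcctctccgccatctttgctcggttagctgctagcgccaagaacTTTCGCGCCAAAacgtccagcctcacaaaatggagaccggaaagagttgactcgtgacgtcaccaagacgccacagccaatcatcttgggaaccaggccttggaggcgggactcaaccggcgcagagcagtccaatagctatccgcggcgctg
Cdc6: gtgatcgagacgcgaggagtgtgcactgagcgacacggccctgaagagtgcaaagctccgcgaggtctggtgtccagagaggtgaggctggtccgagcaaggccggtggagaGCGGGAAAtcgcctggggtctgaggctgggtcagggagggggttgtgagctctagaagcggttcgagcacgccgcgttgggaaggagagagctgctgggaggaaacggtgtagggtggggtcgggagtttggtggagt
Tk1: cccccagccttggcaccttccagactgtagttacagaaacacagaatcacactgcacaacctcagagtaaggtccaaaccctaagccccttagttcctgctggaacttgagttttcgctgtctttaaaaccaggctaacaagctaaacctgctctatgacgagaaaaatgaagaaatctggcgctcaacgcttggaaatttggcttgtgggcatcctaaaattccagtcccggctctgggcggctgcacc

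Of the 10 genes that license origins, 4 rose in the STAT5ca tumours and 7 in the STAT5Δ750 tumours, with median log2 changes of 1.01 and 1.18. Mcm6, a subunit of the helicase ring, had signals of 422, 364 and 235 on the gland arrays, 509.6 to 1988 (median 1623) in the STAT5ca tumours and 867 to 1402 (median 1040.4) in the STAT5Δ750 tumours. Every tumour lay above every gland, and the lowest STAT5ca tumours were STAT5ca_169 and STAT5ca_177. Its log2 change was 1.68 ± 0.41 (adjusted p = 0.00895) in the STAT5ca tumours and 1.65 ± 0.42 (adjusted p = 0.0119) in the STAT5Δ750 tumours. Mcm5, another ring subunit with paired E2F words, gave 164, 144 and 121 on the gland arrays, 156 to 751 (median 537) in the STAT5ca tumours and 367 to 636 (median 409) in the STAT5Δ750 tumours. Only STAT5ca_177, at 156, fell within the range of the glands. Mcm5 rose by 1.48 ± 0.40 (adjusted p = 0.0168) in the STAT5ca tumours and 1.63 ± 0.41 (adjusted p = 0.0112) in the STAT5Δ750 tumours.

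Mcm2 gave signals of 238, 193 and 188 on the gland arrays, 219.8 to 678 (median 493) in the STAT5ca tumours and 380.4 to 627 (median 529) in the STAT5Δ750 tumours, so that only STAT5ca_169 overlapped the glands. It rose by 0.99 ± 0.31 (adjusted p = 0.0348) in the STAT5ca tumours and 1.27 ± 0.32 (adjusted p = 0.0103) in the STAT5Δ750 tumours. Cdc6, the ATPase that helps to close the helicase ring on DNA, gave 52.3, 33.6 and 20.1 on the gland arrays, 61.5 to 163 (median 124.4) in the STAT5ca tumours and 53.5 to 217 (median 101) in the STAT5Δ750 tumours. Both tumour types lay above all glands, although the lowest tumour, a STAT5Δ750 array at 53.5, was close to the highest gland at 52.3. The change of Cdc6 was 1.62 ± 0.37 (adjusted p = 0.00572) in the STAT5ca tumours and 1.57 ± 0.38 (adjusted p = 0.00804) in the STAT5Δ750 tumours.

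Mcm7, Orc1 and Orc6 rose in the STAT5Δ750 tumours, while in the STAT5ca tumours they passed without STAT5ca_177 and not with it. For Mcm7, a ring subunit, the signals were 849.7, 797 and 676 on the gland arrays, 571 to 2729 (median 1867) in the STAT5ca tumours and 1256 to 2295 (median 1657) in the STAT5Δ750 tumours. STAT5ca_177 at 571 lay below every gland and the other 6 STAT5ca tumours above every gland. Mcm7 rose by 1.10 ± 0.38 (adjusted p = 0.0489) in the STAT5Δ750 tumours, and its log2 difference was 1.05 ± 0.37 (adjusted p = 0.0577) in the STAT5ca tumours, or 1.29 (adjusted p = 0.00126) without that array. The STAT5Δ750 call of Mcm7 held in 15 of 31 alternatives, and was lost with quantile normalization (adjusted p = 0.0609). Orc1, the large ATPase of the origin recognition complex, gave 19.8, 13.8 and 20.5 on the gland arrays, 16.9 to 85.0 (median 52.9) in the STAT5ca tumours and 37.3 to 102 (median 61.0) in the STAT5Δ750 tumours, a range that overlaps the dim glands in the STAT5ca tumours only through STAT5ca_169. Its log2 differences were 1.07 ± 0.39 (adjusted p = 0.0685) in the STAT5ca tumours and 1.42 ± 0.40 (adjusted p = 0.0204) in the STAT5Δ750 tumours, and 1.19 (adjusted p = 0.0276) in the STAT5ca tumours without STAT5ca_177. Orc6, the smallest subunit of that complex, had log2 differences of 0.58 ± 0.29 (adjusted p = 0.169) in the STAT5ca tumours and 0.96 ± 0.29 (adjusted p = 0.0302) in the STAT5Δ750 tumours, and of 0.72 (adjusted p = 0.0385) in the STAT5ca tumours without STAT5ca_177.

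The other 3 licensing genes did not pass in either comparison. Mcm3 gave 276, 281 and 208 on the gland arrays, 258 to 841 (median 651) in the STAT5ca tumours and 255 to 894 (median 525) in the STAT5Δ750 tumours, with overlap of both tumour types and the glands, and had log2 differences of 0.97 ± 0.42 (adjusted p = 0.121) in the STAT5ca tumours and 1.01 ± 0.43 (adjusted p = 0.106) in the STAT5Δ750 tumours. Mcm4 had log2 differences of 0.61 ± 0.29 (adjusted p = 0.154) in the STAT5ca tumours and 0.84 ± 0.30 (adjusted p = 0.0563) in the STAT5Δ750 tumours, and all STAT5Δ750 tumours lay above the glands. Cdt1, the helicase loader that geminin restrains, gave 476, 624 and 366 on the gland arrays, 341 to 1142 (median 671) in the STAT5ca tumours and 415 to 1060.1 (median 669.6) in the STAT5Δ750 tumours, and the groups overlapped. For Cdt1 the log2 differences were 0.57 ± 0.35 (adjusted p = 0.28) in the STAT5ca tumours and 0.53 ± 0.36 (adjusted p = 0.309) in the STAT5Δ750 tumours.

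All 3 measured genes of helicase activation rose in both tumour types, each with every tumour above every gland. Gins1, a subunit of the GINS complex, gave signals of 72.9, 66.8 and 45.0 on the gland arrays, 90.5 to 291 (median 183) in the STAT5ca tumours and 183 to 305 (median 197) in the STAT5Δ750 tumours. STAT5ca_123, at 90.5, was the lowest tumour and the only one below 117. Gins1 rose by 1.31 ± 0.30 (adjusted p = 0.00622) in the STAT5ca tumours and 1.72 ± 0.31 (adjusted p = 0.00128) in the STAT5Δ750 tumours. Mcm10, which helps the helicase to leave the origin, gave 47.4, 40.2 and 46.8 on the gland arrays, 55.7 to 257 (median 138) in the STAT5ca tumours and 88.3 to 210.2 (median 109.8) in the STAT5Δ750 tumours, with STAT5ca_177 at 55.7 closest to the glands. Mcm10 rose by 1.39 ± 0.35 (adjusted p = 0.0112) in the STAT5ca tumours and 1.29 ± 0.36 (adjusted p = 0.0193) in the STAT5Δ750 tumours. Cdc45, the helicase partner whose window holds a STAT word and no E2F word, rose by 1.05 ± 0.30 (adjusted p = 0.021) in the STAT5ca tumours and 1.27 ± 0.31 (adjusted p = 0.00818) in the STAT5Δ750 tumours, from signals of 36.6, 30.5 and 52.1 on the gland arrays, 60.7 to 125 (median 109.5) in the STAT5ca tumours and 60.3 to 157 (median 110.4) in the STAT5Δ750 tumours. Its lowest tumours, STAT5Δ750_160 at 60.3 and STAT5ca_169 at 60.7, were still above the highest gland.

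Among the clamp and its loader, 5 of 6 genes rose in the STAT5ca and 4 of 6 in the STAT5Δ750 tumours. Pcna, the sliding clamp that tethers polymerases, gave signals of 1841, 1674 and 1711 on the gland arrays, 2042 to 3636 (median 3283) in the STAT5ca tumours and 2517 to 3924 (median 3150.4) in the STAT5Δ750 tumours. No tumour fell among the glands, and the lowest was STAT5ca_123. Pcna rose by 0.84 ± 0.20 (adjusted p = 0.00799) in the STAT5ca tumours and 0.84 ± 0.21 (adjusted p = 0.00958) in the STAT5Δ750 tumours. On STAT5ca_177 the Pcna signal was 3636, in the upper 3 of the 7 STAT5ca arrays, which held for no other of the 39 genes.

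Rfc5, a small subunit of the loader, gave 138, 121 and 147 on the gland arrays, 221 to 505 (median 419) in the STAT5ca tumours and 319.6 to 508 (median 397) in the STAT5Δ750 tumours. The lowest tumour, STAT5ca_177, stood at 221, clear of the highest gland. Rfc5 rose by 1.45 ± 0.24 (adjusted p = 0.000449) in the STAT5ca tumours and 1.54 ± 0.24 (adjusted p = 0.000408) in the STAT5Δ750 tumours, and it passed under every alternative run in both comparisons. Rfc4 rose by 1.31 ± 0.27 (adjusted p = 0.003) in the STAT5ca tumours and 1.54 ± 0.28 (adjusted p = 0.00126) in the STAT5Δ750 tumours, from 141, 109 and 94.8 on the gland arrays, 162 to 417 (median 317) in the STAT5ca tumours and 244 to 466 (median 347) in the STAT5Δ750 tumours. Rfc3 rose by 1.49 ± 0.34 (adjusted p = 0.00532) in the STAT5ca tumours and 1.56 ± 0.34 (adjusted p = 0.00465) in the STAT5Δ750 tumours, from 72.7, 73.3 and 78.9 on the gland arrays, 100 to 306 (median 277) in the STAT5ca tumours and 140.4 to 408 (median 257) in the STAT5Δ750 tumours. The tumours lay above the glands for both of these loader subunits.

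Rfc2 gave 249.2, 268 and 286 on the gland arrays, 337 to 718 (median 477) in the STAT5ca tumours and 329.9 to 465 (median 350.0) in the STAT5Δ750 tumours, so all tumours were above the glands but those with STAT5Δ750 only by a small margin. For Rfc2 the log2 differences were 0.78 ± 0.21 (adjusted p = 0.016) in the STAT5ca tumours and 0.44 ± 0.22 (adjusted p = 0.16) in the STAT5Δ750 tumours. Rfc1, the large subunit of the loader, gave 196, 249.5 and 203 on the gland arrays, 208 to 344 (median 256) in the STAT5ca tumours and 214 to 297 (median 240.1) in the STAT5Δ750 tumours and overlapped the glands in both tumour types. Its log2 differences were 0.32 ± 0.19 (adjusted p = 0.26) in the STAT5ca tumours and 0.19 ± 0.19 (adjusted p = 0.501) in the STAT5Δ750 tumours.

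**Figure D3:**
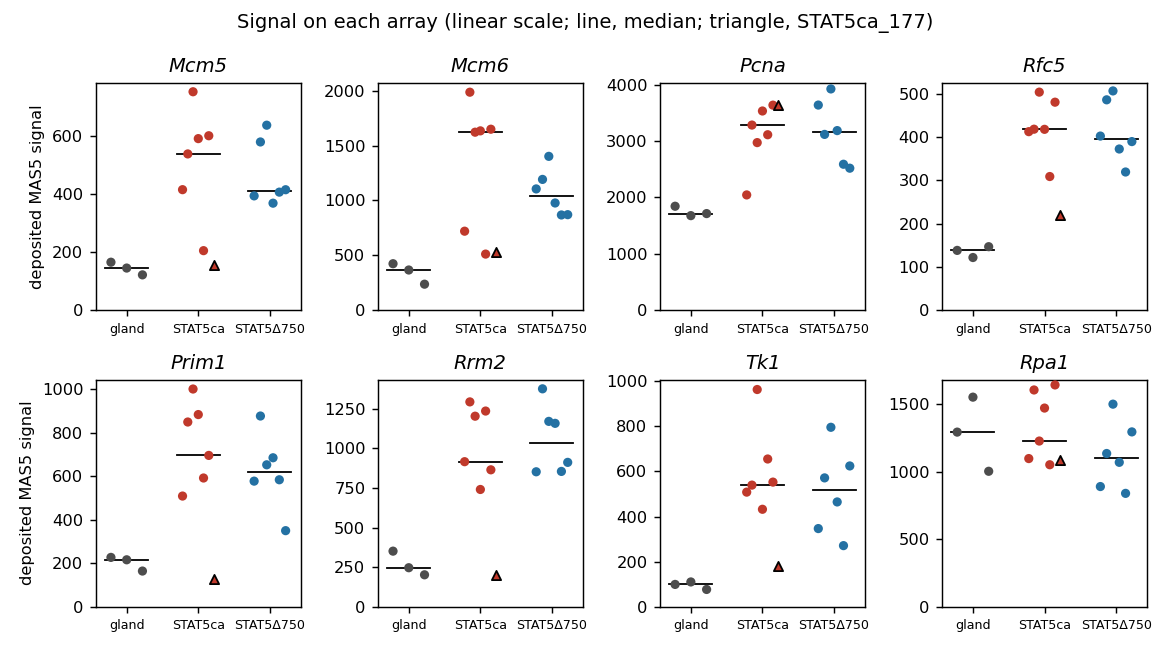
Deposited signal (linear axis from 0) of Mcm5, Mcm6, Pcna, Rfc5, Prim1, Rrm2, Tk1 and Rpa1 on each gland, STAT5ca and STAT5Δ750 array, with the median as a line and STAT5ca_177 as a triangle. The triangle is the lowest STAT5ca point for Mcm5, Rfc5, Prim1, Rrm2 and Tk1 and near the top for Pcna, and the 3 groups overlap for Rpa1.

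Of the 8 polymerase and primase genes, 5 rose in the STAT5ca and 4 in the STAT5Δ750 tumours. Prim1, the catalytic subunit of primase, gave signals of 227, 216 and 164 on the gland arrays, 128 to 1000.1 (median 695) in the STAT5ca tumours and 349.7 to 876 (median 618) in the STAT5Δ750 tumours. STAT5ca_177, at 127.5, lay below all 3 glands, and the next STAT5ca tumour was at 509. The change was 1.48 ± 0.48 (adjusted p = 0.0377) in the STAT5ca tumours and 1.54 ± 0.49 (adjusted p = 0.0342) in the STAT5Δ750 tumours, and 1.83 (adjusted p = 0.000146) in the STAT5ca tumours without that array. Prim2, the large primase subunit, rose by 1.29 ± 0.33 (adjusted p = 0.0111) in the STAT5ca tumours and 1.2 ± 0.34 (adjusted p = 0.019) in the STAT5Δ750 tumours, from 62.6, 70.6 and 56.1 on the gland arrays, 93.9 to 246 (median 158) in the STAT5ca tumours and 85.2 to 249.6 (median 155) in the STAT5Δ750 tumours. Pola1, the catalytic subunit of polymerase alpha, gave 94.4, 89.7 and 59.6 on the gland arrays, 80.4 to 308 (median 184) in the STAT5ca tumours and 122.7 to 253 (median 182) in the STAT5Δ750 tumours, and STAT5ca_177 at 80.4 lay among the glands. It rose by 1.08 ± 0.36 (adjusted p = 0.045) in the STAT5ca tumours and 1.10 ± 0.37 (adjusted p = 0.0441) in the STAT5Δ750 tumours, and these calls held in 14 and 17 of 31 alternatives. Pola2, the accessory subunit of the same polymerase, overlapped the glands and had log2 differences of 0.20 ± 0.29 (adjusted p = 0.668) in the STAT5ca tumours and 0.24 ± 0.29 (adjusted p = 0.592) in the STAT5Δ750 tumours.

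Pole2, an accessory subunit of polymerase epsilon, gave 133, 119.7 and 102 on the gland arrays, 206 to 341 (median 301) in the STAT5ca tumours and 142 to 432 (median 271) in the STAT5Δ750 tumours. It had the smallest spread of the 39 genes among the STAT5ca tumours, and STAT5ca_177 at 290.0 lay among the others. Pole2 rose by 1.27 ± 0.26 (adjusted p = 0.00287) in the STAT5ca tumours and 1.10 ± 0.27 (adjusted p = 0.0087) in the STAT5Δ750 tumours, and passed under every alternative run in both comparisons. Pole, the catalytic subunit, gave 89.7, 65.0 and 72.7 on the gland arrays, 41.2 to 312 (median 158) in the STAT5ca tumours and 95 to 223 (median 155) in the STAT5Δ750 tumours, with STAT5ca_177 below every gland. Its log2 differences were 0.96 ± 0.46 (adjusted p = 0.155) in the STAT5ca tumours and 0.99 ± 0.47 (adjusted p = 0.145) in the STAT5Δ750 tumours, and 1.25 (adjusted p = 0.0113) in the STAT5ca tumours without that array.

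Pold2, an accessory subunit of polymerase delta, gave 104, 138 and 144 on the gland arrays, 116 to 358 (median 316) in the STAT5ca tumours and 202 to 296 (median 219) in the STAT5Δ750 tumours. STAT5ca_177, at 116, lay among the glands, and the next STAT5ca tumour was at 254.4. Pold2 had log2 differences of 1.07 ± 0.29 (adjusted p = 0.0153) in the STAT5ca tumours and 0.84 ± 0.30 (adjusted p = 0.0521) in the STAT5Δ750 tumours. Pold1, the catalytic subunit, overlapped the glands in both tumour types, with 105, 133 and 107 on the gland arrays, 71.0 to 301 (median 226) in the STAT5ca tumours and 118 to 271 (median 138) in the STAT5Δ750 tumours. For Pold1 the log2 differences were 0.49 ± 0.42 (adjusted p = 0.448) in the STAT5ca tumours and 0.36 ± 0.44 (adjusted p = 0.585) in the STAT5Δ750 tumours.

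Of the 4 genes of lagging strand maturation and single-strand binding, 1 rose in the STAT5ca and 2 in the STAT5Δ750 tumours. Lig1, the ligase that seals Okazaki fragments, had the smallest spread of the 39 genes in the glands (SD 0.032 on the log2 scale). Its signals were at most 182 on the gland arrays, 316 to 1002 (median 675) in the STAT5ca tumours and 356 to 667 (median 391) in the STAT5Δ750 tumours. Every tumour lay above every gland, and 5 of the 6 STAT5Δ750 tumours sat within 356 to 399. Lig1 rose by 1.62 ± 0.34 (adjusted p = 0.00358) in the STAT5ca tumours and 1.21 ± 0.35 (adjusted p = 0.0237) in the STAT5Δ750 tumours. Fen1, the nuclease that trims their flaps, varied the most in the glands, with 98.5, 183 and 242 on the gland arrays, 189 to 1234 (median 338) in the STAT5ca tumours and 298 to 738 (median 478) in the STAT5Δ750 tumours. STAT5ca_124 was the highest array, and STAT5ca_177 and STAT5ca_169 lay below the highest gland. Fen1 had log2 differences of 1.28 ± 0.49 (adjusted p = 0.0782) in the STAT5ca tumours and 1.5 ± 0.50 (adjusted p = 0.0433) in the STAT5Δ750 tumours, and of 1.46 (adjusted p = 0.0266) in the STAT5ca tumours without STAT5ca_177. The STAT5Δ750 call of Fen1 held in 19 of 31 alternatives.

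Rpa1 and Rpa2, subunits of the complex that coats single-stranded DNA, did not pass in either comparison. Rpa1 gave 1292, 1550.2 and 1002 on the gland arrays, 1051 to 1641 (median 1226) in the STAT5ca tumours and 839 to 1498 (median 1101) in the STAT5Δ750 tumours, and the 3 groups overlapped. Its log2 differences were 0.03 ± 0.22 (adjusted p = 0.941) in the STAT5ca tumours and -0.20 ± 0.23 (adjusted p = 0.567) in the STAT5Δ750 tumours, and the sign in the STAT5ca tumours turned with quantile normalization (-0.04). Rpa2 had log2 differences of 0.52 ± 0.32 (adjusted p = 0.28) in the STAT5ca tumours and 0.44 ± 0.33 (adjusted p = 0.357) in the STAT5Δ750 tumours, with tumours of both types among the glands.

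Of the 4 tested nucleotide supply genes, 3 rose in each tumour type. Tk1, the S phase thymidine kinase that salvages thymidine, had the largest change of the 39 genes in both. Its signals were 99.2, 110.2 and 76.9 on the gland arrays, 181 to 963 (median 539) in the STAT5ca tumours and 271 to 796 (median 518) in the STAT5Δ750 tumours. The lowest tumour was STAT5ca_177, at 181, above the highest gland. Tk1 rose by 2.30 ± 0.40 (adjusted p = 0.000804) in the STAT5ca tumours and 2.26 ± 0.41 (adjusted p = 0.00136) in the STAT5Δ750 tumours, which is 4.94-fold and 4.78-fold on the scale of signal + 8.

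Rrm2, the small subunit of ribonucleotide reductase, gave 351, 247 and 202 on the gland arrays, 202 to 1293 (median 916) in the STAT5ca tumours and 852 to 1376 (median 1035) in the STAT5Δ750 tumours. STAT5ca_177, at 202, was level with the lowest gland, while the other 12 tumours were at 740.5 or above. The change was 1.61 ± 0.44 (adjusted p = 0.0158) in the STAT5ca tumours and 1.96 ± 0.45 (adjusted p = 0.00575) in the STAT5Δ750 tumours, and 1.94 (adjusted p = 3.62e-05) in the STAT5ca tumours without that array. Rrm1, the large subunit, gave 225, 210.4 and 159.2 on the gland arrays, 238 to 828 (median 529.9) in the STAT5ca tumours and 377 to 618 (median 476) in the STAT5Δ750 tumours, and every tumour lay above every gland. Rrm1 rose by 1.34 ± 0.29 (adjusted p = 0.00418) in the STAT5ca tumours and 1.30 ± 0.30 (adjusted p = 0.00622) in the STAT5Δ750 tumours. Dut, which removes dUTP, gave 260.2, 261 and 167 on the gland arrays, 122 to 551 (median 458) in the STAT5ca tumours and 336 to 717 (median 502) in the STAT5Δ750 tumours, and STAT5ca_177 and STAT5ca_123 were below the highest gland. For Dut the log2 differences were 0.71 ± 0.40 (adjusted p = 0.234) in the STAT5ca tumours and 1.18 ± 0.41 (adjusted p = 0.0502) in the STAT5Δ750 tumours, and 0.96 (adjusted p = 0.0172) in the STAT5ca tumours without STAT5ca_177.

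Of the 4 checkpoint and methylation genes, 3 rose in each tumour type. Uhrf1, which reads half-methylated DNA behind the fork, gave 141, 122 and 70.5 on the gland arrays, 124.2 to 786 (median 453) in the STAT5ca tumours and 300 to 565 (median 389) in the STAT5Δ750 tumours. STAT5ca_177, at 124.2, was the only tumour among the glands. Uhrf1 rose by 1.71 ± 0.45 (adjusted p = 0.0131) in the STAT5ca tumours and 1.87 ± 0.46 (adjusted p = 0.00878) in the STAT5Δ750 tumours. Dnmt1, the methyltransferase that Uhrf1 recruits, gave 508, 504 and 441 on the gland arrays, 314 to 1001 (median 632) in the STAT5ca tumours and 553 to 881 (median 695) in the STAT5Δ750 tumours. It did not pass, with log2 differences of 0.22 ± 0.36 (adjusted p = 0.704) in the STAT5ca tumours and 0.52 ± 0.37 (adjusted p = 0.336) in the STAT5Δ750 tumours, although all STAT5Δ750 tumours lay above the glands. STAT5ca_123, STAT5ca_169 and STAT5ca_177 lay below all 3 glands.

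Brca1, which protects and repairs stalled forks, gave 70.3, 57.7 and 42.6 on the gland arrays, 47.7 to 394 (median 199.5) in the STAT5ca tumours and 111 to 333 (median 159.3) in the STAT5Δ750 tumours, and only STAT5ca_177 lay among the glands. It rose by 1.58 ± 0.45 (adjusted p = 0.0211) in the STAT5ca tumours and 1.49 ± 0.46 (adjusted p = 0.0314) in the STAT5Δ750 tumours. Chek1, the kinase that slows the cycle when replication stalls, gave 59.5, 49.8 and 45.3 on the gland arrays, 39.7 to 272 (median 154) in the STAT5ca tumours and 91.1 to 285 (median 159.1) in the STAT5Δ750 tumours, and STAT5ca_177 lay below every gland. Chek1 rose by 1.30 ± 0.44 (adjusted p = 0.04995) in the STAT5ca tumours and 1.52 ± 0.45 (adjusted p = 0.0262) in the STAT5Δ750 tumours. The STAT5ca call lies at the threshold and held in 10 of 31 alternatives, and without STAT5ca_177 the change was 1.57 (adjusted p = 0.00253).

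The 3 gland arrays are the smallest group, and the calls leaned on each of them. Without gland 1, 4 or 6 in turn, 16, 13 and 14 of the 39 genes rose in the STAT5ca tumours, and 15, 12 and 11 in the STAT5Δ750 tumours. Over all genes the shares that rose were then 2.89%, 2.37% and 4.2%, and 3.34%, 2.63% and 4.71%. The median log2 change of the 39 genes was 1.12, 1.16 and 1.15 in the STAT5ca and 1.23, 1.23 and 1.15 in the STAT5Δ750 tumours, against 1.08 and 1.21 with all glands. Fitted without the arrays of the third group, 15 genes rose in the STAT5ca tumours and 30 in the STAT5Δ750 tumours (4.55% and 12.8% of all genes). Under every alternative run, 3 genes stayed past the threshold in the STAT5ca tumours (Rfc5, Pole2 and Tk1) and 8 in the STAT5Δ750 tumours (Gins1, Rfc3, Rfc4, Rfc5, Pole2, Rrm1, Rrm2 and Tk1). The share of all genes that stayed past it was not counted.

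Most of the genes have further probe sets of their own, which read the same transcript elsewhere. The 40 genes had 78 such probe sets, of which 68 were tested, and 29 of these, over 22 genes, were not the one used. All tested single-gene probe sets were fitted in a separate model, with the adjustment made over them. In that model 5.93% and 7.13% of the used probe sets of all genes rose in the STAT5ca and STAT5Δ750 tumours. The further probe sets read the same RNA as the used ones and are not independent of them. Of the 29, 11 rose in the STAT5ca and 17 in the STAT5Δ750 tumours, none fell, and 29 and 28 had the sign of the used probe set. The exception was Dut, whose further probe set had a log2 change of -0.15 in the STAT5Δ750 tumours. A further probe set of Cdt1 rose by 0.98 (adjusted p = 0.0393) in the STAT5ca and 1.11 (adjusted p = 0.0232) in the STAT5Δ750 tumours, where the used one did not pass. One of Mcm3 rose by 1.65 (adjusted p = 0.0486) and 2.11 (adjusted p = 0.0152), and 1 of Mcm7 by 1.64 in both (adjusted p = 0.0131 and 0.0148). A gene whose used probe set did not pass may thus have another that did. The further probe set of Prim2 had a log2 difference of 0.04 (adjusted p = 0.979) in the STAT5ca tumours, with a lowest signal of 10.6.

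The spread between tumours was wider in the STAT5ca group. The median SD of the 39 genes on the log2 scale was 0.61 over the STAT5ca tumours, 0.49 without STAT5ca_177, 0.35 over the STAT5Δ750 tumours and 0.24 over the glands. For all tested genes the median SDs were 0.54, 0.44, 0.42 and 0.21. The most variable of the 39 was Prim1 among the STAT5ca tumours (0.99), Fen1 without STAT5ca_177 (0.89) and Cdc6 among the STAT5Δ750 tumours (0.68). These spreads are given as a description, without a test of their difference.

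Averaged over the 39 genes, the log2 level was 7.15 to 7.42 in the glands, 7.502 to 8.94 in the STAT5ca tumours and 8.19 to 8.84 in the STAT5Δ750 tumours. STAT5ca_124 had the highest signal of the 13 tumours for 12 genes, STAT5Δ750_165 for 10, STAT5ca_213 for 8 and STAT5Δ750_92 for 6. STAT5ca_177 had the lowest signal for 23 genes, STAT5Δ750_178 for 6 and STAT5ca_169 for 5. Such ranks were not counted over all genes. STAT5ca_124 lay above every gland for all 39 genes and STAT5ca_177 for 19, while 31.4% of all tested genes did so on STAT5ca_177 and 40.9% on STAT5ca_124. High and low tumours were thus found in both transgenic groups. Within the STAT5ca group, STAT5ca_124 also had the highest beta-actin ratio (5.38) and the highest mean level of the B cell markers (7.69, against 3.92 to 4.65 on the others), whose part in its levels was not tested.

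The highest array differed between roles. For nucleotide supply, STAT5ca_213 had the highest mean log2 level of the tumours (9.73) and STAT5ca_169, low for the licensing genes (7.88), stood at 9.40. For the lagging strand genes STAT5ca_124 was highest (9.90), and for helicase activation STAT5Δ750_165 (7.81). On STAT5ca_177 the mean was below the lowest tumour of the STAT5Δ750 group for all 7 roles. STAT5ca_169 was also below it for licensing, helicase activation (6.55), polymerases and primase (7.437), lagging strand (8.38) and checkpoint genes (7.88). For the clamp and its loader (8.80) and for nucleotide supply it was not. STAT5ca_123 was below it for licensing (8.31), helicase activation (6.60) and checkpoint genes (7.72), and not for the other roles. The genes of STAT5ca_177 above every gland included Cdc6, Cdc45, Gins1, Pcna, Pole2, Rrm1 and Tk1, and those at or below the highest gland included Mcm5, Prim1, Rrm2, Brca1, Chek1, Uhrf1 and Dut.

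**Figure D4:**
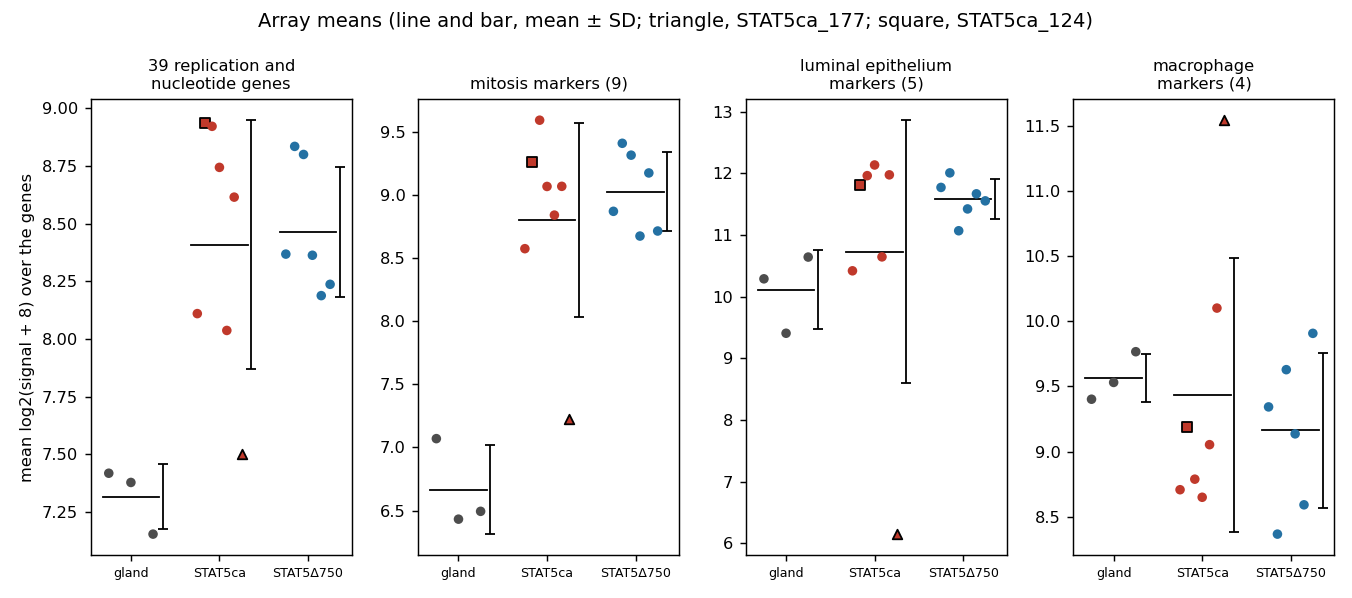
Mean log2(signal + 8) per array over the 39 replication and nucleotide genes, the 9 mitosis markers, the 5 luminal epithelium markers and the 4 macrophage markers, with group means ± SD, STAT5ca_177 as a triangle and STAT5ca_124 as a square. STAT5ca_177 is the lowest tumour in the first 3 panels and the highest array in the macrophage panel.

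Between the tumour types, none of the 39 genes passed (limma, adjusted p under 0.05), and neither did any other of the genes tested (0%). At an unadjusted p under 0.05 there were 525 genes over the whole array (5.67%) and 0 among the 39. Without STAT5ca_177 these counts were 864 and 2, and with each array scaled to a common median 763 and 1. The STAT5ca tumours were higher for 17 genes and lower for 22, with a median log2 difference of -0.04, or 0.10 without STAT5ca_177. The smallest unadjusted p among them was 0.0638, for Rfc2. A p that misses the threshold does not show equal levels, so the intervals are given. For 34 genes the 95% interval of the difference lay within 1 on the log2 scale in both directions, and for all 39 it contained 0. Orc1, Lig1, Fen1, Rrm2 and Dut were the 5 whose interval reached 1 or more in one direction.

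For Pcna the difference of STAT5ca minus STAT5Δ750 was 0.00, with a 95% interval of -0.35 to 0.35. Rfc2, the clamp loader subunit with the smallest p, differed by 0.34, with a 95% interval of -0.02 to 0.70. Lig1 differed by 0.41, with a 95% interval of -0.18 to 1.0, and its median signal was 675 in the STAT5ca and 391 in the STAT5Δ750 tumours. In the other direction, Dut differed by -0.47, with a 95% interval of -1.16 to 0.21. Gins1, also lower in the STAT5ca tumours, differed by -0.40, with a 95% interval of -0.92 to 0.12. The further probe set of Dut had the opposite sign, at 0.53 ± 0.25 (limma, adjusted p = 0.864 in the separate model of all probe sets). The direction for Dut thus depended on the probe set. The narrowest interval was that of Rfc1, spanning 0.65, and the widest that of Fen1, spanning 1.68. A difference of 2-fold between the tumour types therefore lay outside the interval for most of the genes. It lay inside the interval or at its bound for Orc1, Lig1, Fen1, Rrm2 and Dut.

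**Figure D5:**
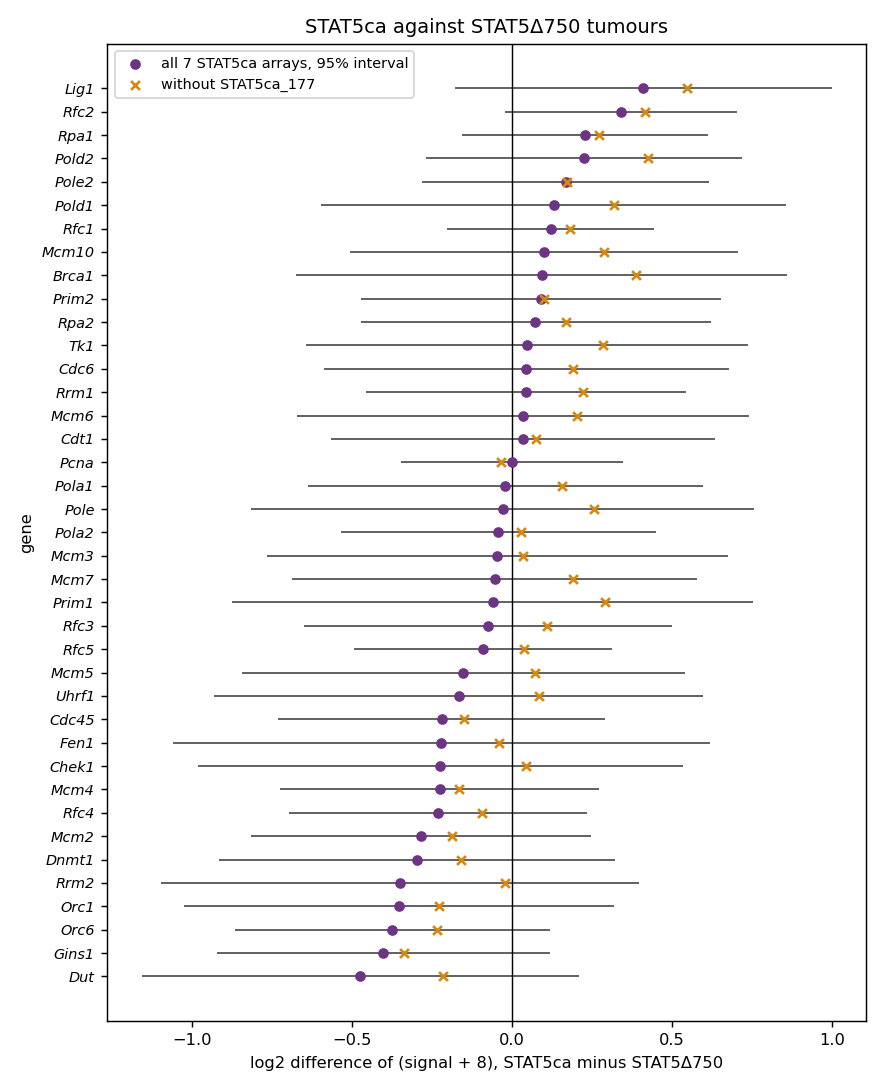
Points give the log2 difference of STAT5ca minus STAT5Δ750 tumours for each of the 39 genes, ordered by size, with 95% intervals, and crosses give it without STAT5ca_177. All 39 intervals cross 0, with the lowest bound at Dut (-1.16) and the highest at Lig1 (1.0).

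Around these genes, 7 lists of other genes of the same pathways were read the same way. Of their 116 genes, 91 were tested. In the STAT5ca tumours 17 rose and 5 fell, in the STAT5Δ750 tumours 23 rose and 4 fell, and none passed between the tumour types. Over all genes tested 6.72% and 7.61% rose, and 13.2% and 14% fell. The median log2 changes were 0.37 and 0.52. Of the 12 tested further licensing and firing genes, 2 rose in the STAT5ca and 3 in the STAT5Δ750 tumours. Gmnn, geminin, which restrains Cdt1, gave 85.0 to 279 on the gland arrays, 177.7 to 1240.2 (median 629.8) in the STAT5ca tumours and 394 to 725 (median 523) in the STAT5Δ750 tumours, and rose by 1.80 ± 0.53 (adjusted p = 0.0248) in the STAT5ca tumours and 1.87 ± 0.54 (adjusted p = 0.0225) in the STAT5Δ750 tumours. Dbf4, the activator of the Cdc7 kinase that fires origins, had log2 differences of 0.73 ± 0.33 (adjusted p = 0.133) in the STAT5ca tumours and 1.28 ± 0.33 (adjusted p = 0.0131) in the STAT5Δ750 tumours. Orc2 had log2 differences of 0.45 ± 0.27 (adjusted p = 0.266) in the STAT5ca tumours and 0.95 ± 0.28 (adjusted p = 0.0245) in the STAT5Δ750 tumours, and Gins4 had 0.76 ± 0.22 (adjusted p = 0.0221) in the STAT5ca tumours and 0.52 ± 0.22 (adjusted p = 0.108) in the STAT5Δ750 tumours.

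Of the 13 tested further fork genes, 4 rose in the STAT5ca and 5 in the STAT5Δ750 tumours. Exo1, an exonuclease of mismatch and break repair, gave 15.6 to 30.0 on the gland arrays, 31.8 to 173 (median 96.0) in the STAT5ca tumours and 86.4 to 224 (median 120.2) in the STAT5Δ750 tumours, and rose by 1.80 ± 0.42 (adjusted p = 0.00632) in the STAT5ca tumours and 2.29 ± 0.43 (adjusted p = 0.00159) in the STAT5Δ750 tumours. Top2a, the topoisomerase that untangles copied chromosomes, rose by 1.95 ± 0.47 (adjusted p = 0.00814) in the STAT5ca tumours and 1.93 ± 0.48 (adjusted p = 0.0103) in the STAT5Δ750 tumours, and Rnaseh2c, a subunit of the enzyme that removes ribonucleotides from DNA, by 1.05 ± 0.27 (adjusted p = 0.0119) in the STAT5ca tumours and 0.81 ± 0.28 (adjusted p = 0.047) in the STAT5Δ750 tumours. Chtf18, of an alternative clamp loader, rose by 1.47 ± 0.49 (adjusted p = 0.0451) in the STAT5ca tumours and 1.58 ± 0.50 (adjusted p = 0.0357) in the STAT5Δ750 tumours, from 2.00 to 15.1 on the gland arrays, 1.30 to 74 (median 38.4) in the STAT5ca tumours and 24.9 to 48.6 (median 34.4) in the STAT5Δ750 tumours. All glands lay under the filter value for Exo1 and Chtf18, which entered the test through the tumours alone, and the lowest STAT5ca tumour for Chtf18 lay below every gland.

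Of the 9 tested genes of chromatin assembly behind the fork, 3 rose in the STAT5ca and 4 in the STAT5Δ750 tumours. Chaf1b, a subunit of the histone chaperone CAF-1, gave 40.5 to 49.2 on the gland arrays, 120.1 to 243 (median 185) in the STAT5ca tumours and 149.7 to 218 (median 158) in the STAT5Δ750 tumours. Its rise of 1.87 ± 0.21 (adjusted p = 1.67e-05) in the STAT5ca tumours and 1.77 ± 0.21 (adjusted p = 5.01e-05) in the STAT5Δ750 tumours had smaller adjusted p-values than any of the 39 genes. Asf1b, another histone chaperone, rose by 1.0 ± 0.31 (adjusted p = 0.0311) in the STAT5ca tumours and 0.94 ± 0.31 (adjusted p = 0.0424) in the STAT5Δ750 tumours, and Hat1, which acetylates new histones, by 0.85 ± 0.27 (adjusted p = 0.0352) in the STAT5ca tumours and 0.94 ± 0.28 (adjusted p = 0.0242) in the STAT5Δ750 tumours. Hells, a chromatin remodeller, had log2 differences of 0.91 ± 0.36 (adjusted p = 0.0896) in the STAT5ca tumours and 1.51 ± 0.37 (adjusted p = 0.00929) in the STAT5Δ750 tumours.

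Of the 18 tested pyrimidine and folate genes, 3 rose and 1 fell in each tumour type. Over all genes tested 6.72% and 7.61% rose, and 13.2% and 14% fell, so falls were fewer here than over all genes. Nme1, a nucleoside diphosphate kinase, rose by 1.23 ± 0.30 (adjusted p = 0.00797) in the STAT5ca tumours and 1.41 ± 0.30 (adjusted p = 0.0041) in the STAT5Δ750 tumours. Rrm2b, the p53-induced reductase subunit that serves resting cells, gave 313 to 352 on the gland arrays, 133 to 296 (median 200.1) in the STAT5ca tumours and 150.4 to 258 (median 187) in the STAT5Δ750 tumours. Its log2 changes were -0.81 ± 0.23 (adjusted p = 0.0207) in the STAT5ca tumours and -0.79 ± 0.24 (adjusted p = 0.027) in the STAT5Δ750 tumours, both falls, while its S phase counterpart Rrm2 rose. With each array scaled to a common median, neither fall of Rrm2b passed (adjusted p = 0.0998 and 0.0551). Umps, which completes uridine monophosphate, had log2 differences of 0.95 ± 0.32 (adjusted p = 0.0442) in the STAT5ca tumours and 0.67 ± 0.32 (adjusted p = 0.152) in the STAT5Δ750 tumours, and Uck2, a uridine kinase, had 0.92 ± 0.46 (adjusted p = 0.175) in the STAT5ca tumours and 1.60 ± 0.47 (adjusted p = 0.0242) in the STAT5Δ750 tumours.

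Of the 11 tested purine genes, 1 rose in each tumour type, 2 fell in the STAT5ca and 1 fell in the STAT5Δ750 tumours, counts near the shares over all genes. Aprt, which salvages adenine, rose by 1.17 ± 0.34 (adjusted p = 0.0228) in the STAT5ca tumours and 1.05 ± 0.35 (adjusted p = 0.0412) in the STAT5Δ750 tumours. Adssl1, the muscle isoform of adenylosuccinate synthase, fell with log2 changes of -3.61 ± 0.52 (adjusted p = 0.000145) in the STAT5ca tumours and -3.64 ± 0.53 (adjusted p = 0.000229) in the STAT5Δ750 tumours, beside the fall of the muscle markers. Prps1, which makes the ribose phosphate donor, had log2 differences of -0.93 ± 0.24 (adjusted p = 0.0114) in the STAT5ca tumours and -0.64 ± 0.24 (adjusted p = 0.0721) in the STAT5Δ750 tumours. With each array scaled to a common median, the call of Prps1 in the STAT5ca tumours (adjusted p = 0.1) and that of Aprt in the STAT5Δ750 tumours (adjusted p = 0.0559) were lost.

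Among the checkpoint and fork repair genes, Wee1, the kinase that holds back Cdk1, had log2 differences of 1.01 ± 0.42 (adjusted p = 0.109) in the STAT5ca tumours and 1.32 ± 0.43 (adjusted p = 0.0403) in the STAT5Δ750 tumours. Of the 15 tested E2F and pocket protein genes, 3 rose and 2 fell in the STAT5ca tumours, and 5 rose and 2 fell in the STAT5Δ750 tumours. Over all genes tested 6.72% and 7.61% rose, and 13.2% and 14% fell, so the counts of falls were near the shares over all genes. Ccna2, cyclin A2, gave 91.6 to 192 on the gland arrays, 153 to 1206 (median 653) in the STAT5ca tumours and 362 to 1065 (median 614) in the STAT5Δ750 tumours, and rose by 2.12 ± 0.46 (adjusted p = 0.00421) in the STAT5ca tumours and 2.26 ± 0.47 (adjusted p = 0.0035) in the STAT5Δ750 tumours. Skp2, the ubiquitin ligase subunit that removes p27, rose by 1.35 ± 0.33 (adjusted p = 0.00961) in the STAT5ca tumours and 1.94 ± 0.34 (adjusted p = 0.00103) in the STAT5Δ750 tumours. Rbl2, the pocket protein p130 that represses E2F targets in resting cells, gave 484 to 579.6 on the gland arrays, 119 to 342 (median 209.6) in the STAT5ca tumours and 125 to 298 (median 192) in the STAT5Δ750 tumours, and fell with log2 changes of -1.38 ± 0.32 (adjusted p = 0.00624) in the STAT5ca tumours and -1.47 ± 0.33 (adjusted p = 0.00493) in the STAT5Δ750 tumours. Mki67, a marker of cycling cells, rose by 1.60 ± 0.45 (adjusted p = 0.0196) in the STAT5ca tumours and 1.45 ± 0.46 (adjusted p = 0.0349) in the STAT5Δ750 tumours.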

How the data were processed

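Total RNA of 3 normal mammary glands, 7 STAT5ca and 6 STAT5Δ750 tumours was hybridised to 1 array each. The authors deposited linear intensity values, made with MAS5 per the submitters' processing notes (version not given in the sources used here), each array scaled to a trimmed mean of 250.08 to 250.09 (2% trimmed from each side, found from the values). Array medians were 57.3 to 90.7. Of 22690 probe sets, 20393 carried 1 gene symbol, 691 several and 1606 none in the platform annotation. The deposited scaling was kept, 8 was added and log2 taken. Per gene the single-symbol probe set with the highest mean was used, and genes above 35.4 (the 40th percentile) on at least 3 arrays were tested. The 3 groups were fitted together with limma 3.58.1 (R 4.3.3; 13 residual and 2.626 prior degrees of freedom), with Benjamini-Hochberg adjustment over 9252 genes per comparison, and called at an adjusted p under 0.05. The step was run on simulated data (5 draws, 200 genes changed in each), to check that it returned the size of a known change. Genes were drawn independently there, so arrays that deviate over many genes were not part of that check. Figures were drawn with matplotlib 3.10.9.

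The genes described were all members of the list, and, of each neighbouring list, up to 3 with the smallest adjusted p per comparison with gland, plus Mki67 and Top2a. One result of the checkpoint and fork repair list is not reported here. Members, lists and tests were chosen with earlier results of these data known. Marker lists gave the counts in the text, and the remaining ones were as follows. Of 4 basal epithelial markers 2 fell in the STAT5ca and 1 in the STAT5Δ750 tumours, none of 4 milk genes passed, of 4 macrophage markers 1 fell in the STAT5Δ750 tumours, and of 4 fibroblast markers 1 rose and 1 fell in each. No date or batch is labelled, and the number of arrays limits the precision. Alternatives changed the scaling, offset, filter, probe set choice, variance model, covariates and arrays.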

Additional observations from a re-analysis of the deposited data

Results flagged for a closer look

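Among 80 sets of array values examined in the tumour groups, 9 had an array past the critical value of Dixon's test at 95%. The quantity tested was the array's distance to its nearest neighbour divided by the range of its set. Chance gives about 1 in 20. Values are log2(signal + 8), with signals after them.

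On STAT5ca_177, 5 genes were low: Cdc6 at 6.12 (61.5, against 113 to 163 on the other STAT5ca arrays), Prim1 at 7.08 (127.5, against 509 to 1000.1), Pold2 at 6.96 (116, against 254.4 to 358), Rrm2 at 7.72 (202, against 740.5 to 1293) and Brca1 at 5.80 (47.7, against 172 to 394). On STAT5ca_123, 2 genes were low: Pcna at 11 (2042, against 2971 to 3636) and Pole2 at 7.74 (206, against 284 to 341). On STAT5Δ750_92, 2 genes were high: Pold1 at 8.12 (270.5, against 118 to 147 on the other STAT5Δ750 arrays) and Lig1 at 9.40 (667, against 356 to 399).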

How the results depend on the processing

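Of the 39 genes, 24 rose in the STAT5ca and 26 in the STAT5Δ750 tumours. With only the arrays of the 2 groups fitted, 15 (4.55% of all genes) and 30 (12.8%) rose. With the log2 beta-actin ratio as a covariate, 4 (1.85%) and 15 (5.53%) rose, where the ratio itself separated all tumours from all glands. Leaving out 1 array at a time gave 13 (without gland 4) to 30 (without STAT5ca_177) in the STAT5ca tumours, with 2.37% and 13.4% of all genes. In the STAT5Δ750 tumours it gave 11 (without gland 6) to 30 (without STAT5ca_177), with 4.71% and 11.8% of all genes. With array quality weights 36 and 32 rose (24.5% and 21.6% of all genes), beside 2267 higher and 2551 lower calls over all genes in the STAT5ca tumours (622 and 1222 without weights). The comparison of the tumour types gave 0 under every alternative run. Signs that turned belonged to values that did not pass the threshold: with the beta-actin ratio, Cdt1 (-0.002), Pola2 (-0.205), Pold1 (-0.008) and Dnmt1 (-0.082) in the STAT5ca and Pola2 (-0.002) in the STAT5Δ750 tumours; Rpa1 in the STAT5ca tumours with quantile normalization (-0.039) and without gland 6 (-0.134), STAT5ca_124 (-0.021), STAT5ca_159 (0) or STAT5ca_171 (-0.027), where single arrays left out gave up to 0.179 (without gland 4) and median scaling gave 0.324; and Dut between the tumour types with the mean of its probe sets (0.027). The cause was not tested. Fitting every probe set on its own gave 22 and 25 (5.93% and 7.13% of all genes). Leaving out STAT5ca_124 with STAT5ca_177 gave 29 and 30 (13.3% and 12% of all genes). Both alternatives were chosen after seeing the data. No paired analysis was possible because the groups share no replicate numbers. Dim signal limits what can be read: the 3 probe sets of Tyms and 7 further probe sets of the other genes were not tested.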
